A study of Homo sapiens with 6 samples.

Results

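S100 proteins are small calcium-binding proteins, and the transcripts of 10 of them (S100A2, S100A3, S100A4, S100A6, S100A10, S100A11, S100A13, S100A14, S100A16 and S100P) were compared between DLD1 parental cells and p85β KR-AA cells. They were found by matching the Ensembl identifiers of the deposited table to GENCODE symbols, which gave 10 of 10 genes among 58884 in the table. DLD1 is a colorectal cancer cell line, and the study describes it as carrying the E545K mutation in PIK3CA, the gene of the PI3K catalytic subunit p110α, so cells of both groups carry it. The p85β KR-AA cells are DLD1 cells in which K477A and R478A, changes in a nuclear localization sequence, were introduced by homozygous knock-in into PIK3R2, which encodes the PI3K regulatory subunit p85β. There were 3 RNA-seq libraries of parental cells and 3 of p85β KR-AA cells, with no treatment named in the labels. The study made 2 independently derived clones, and the labels do not say which clone or clones gave the libraries. The title and genotype of all 3 p85β KR-AA libraries give K477A and R478A, while the source names of replicates 2 and 3 read R479A and R480A in place of R478A. The knock-in changes residues, so the level of the PIK3R2 transcript does not check the labels.

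An S100 protein carries a pair of EF-hand calcium-binding loops and usually works as a dimer. Calcium opens a surface that docks onto target proteins such as annexins, myosin heavy chains or enzymes, and several family members are also secreted and act on the receptor RAGE. In intestinal epithelium and its cancers S100A6, S100A10, S100A11, S100A14, S100A16 and S100P are known to be made by epithelial cells, whereas S100A4 is best known from mesenchymal and metastatic cells.

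Most S100 genes lie side by side on the long arm of chromosome 1. In the annotation used here (GENCODE release 44 lifted to GRCh37), 9 of the 10 genes lay on the minus strand of chromosome 1 between 151955391 and 153603836, and S100P lay on the plus strand of chromosome 4 between 6695605 and 6698897. From S100A10 the order along chromosome 1 was S100A11, S100A6, S100A4, S100A3, S100A2, S100A16, S100A14 and S100A13. The whole of S100A3 (153519805 to 153521734) lay within the span of S100A4 (153516089 to 153522612) on the same strand, with no shared exon base. S100A13 shared 207 exon bases with S100A1 on the opposite strand, but S100A1 had only 6 to 31 counts per library. It also shared 202 exon bases with the lncRNA ENSG00000271853 on the same strand, which had 36.4 to 57.1 counts.

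Because the genes are neighbours and most of them moved in the same direction, the 250 bases before their starts were read from RefSeq (GRCh38.p14), which held 14 entries for the 10 genes. The entries shown, 5′ to 3′ on the gene's own strand, are those of S100A4, S100A3, S100A6, S100A14 and S100P. S100A4 rose, S100A3 lies within its GENCODE span and fell, and S100A6 is the next of the 10 genes on the other side of S100A4. S100A14 fell under every scaling tried, and S100P lies on another chromosome. The S100A4 start used here lies downstream of S100A3, so S100A3 is outside the transcript that begins there. Capitals mark a TATA box (TATAAA), a GC box (GGGCGG) or an AP-1 site (TGANTCA), searched on both strands.
S100A4 (chr1:153545807-153546056, minus strand): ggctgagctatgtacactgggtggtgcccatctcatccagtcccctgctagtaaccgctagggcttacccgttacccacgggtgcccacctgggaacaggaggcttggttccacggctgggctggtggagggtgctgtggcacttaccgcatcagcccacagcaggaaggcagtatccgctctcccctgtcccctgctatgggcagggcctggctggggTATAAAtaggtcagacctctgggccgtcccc
S100A3 (chr1:153549259-153549508, minus strand): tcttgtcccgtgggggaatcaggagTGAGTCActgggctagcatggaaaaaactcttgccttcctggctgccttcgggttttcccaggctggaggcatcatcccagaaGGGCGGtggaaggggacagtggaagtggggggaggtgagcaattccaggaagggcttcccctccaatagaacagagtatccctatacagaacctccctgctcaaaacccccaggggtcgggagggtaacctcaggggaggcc
S100A6 (chr1:153535992-153536241, minus strand): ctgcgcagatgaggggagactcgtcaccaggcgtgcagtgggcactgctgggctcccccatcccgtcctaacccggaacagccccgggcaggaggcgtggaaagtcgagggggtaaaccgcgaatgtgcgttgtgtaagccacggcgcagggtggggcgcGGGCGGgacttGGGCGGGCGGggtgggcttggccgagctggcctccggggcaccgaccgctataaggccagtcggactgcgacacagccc
S100A14 (chr1:153616326-153616575, minus strand): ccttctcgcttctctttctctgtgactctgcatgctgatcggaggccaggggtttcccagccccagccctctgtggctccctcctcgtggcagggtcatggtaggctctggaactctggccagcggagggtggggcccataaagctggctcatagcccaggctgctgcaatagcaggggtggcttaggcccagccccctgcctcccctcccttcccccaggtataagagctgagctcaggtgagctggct
S100P (chr4:6693628-6693877, plus strand): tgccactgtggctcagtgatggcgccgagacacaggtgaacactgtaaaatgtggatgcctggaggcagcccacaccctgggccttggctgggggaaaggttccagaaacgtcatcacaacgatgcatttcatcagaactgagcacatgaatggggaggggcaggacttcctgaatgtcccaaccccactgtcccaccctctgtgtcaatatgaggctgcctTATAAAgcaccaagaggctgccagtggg
The TATA box began 31 bases before the start of S100A4 and 28 bases before that of S100P. S100A6 held 3 GC boxes, at 90, 79 and 75 bases. S100A3 held a GC box at 142 and an AP-1 site at 225 bases before its start, and the S100A14 entry held none of the 3 motifs. Over the 14 entries, TATAAA was present in 3, GGGCGG in 6 and TGANTCA in 2. The shares among all 35116 promoters of the same length were 10.7%, 42.6% and 6.6%. The median number of CpG dinucleotides was 6.5 in the 14 entries and 11 in all promoters. The letters found do not separate the gene that rose from the 9 that fell, as S100P and an S100A13 entry also held a TATA box.

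Library totals were between 20301396 and 26712816 estimated counts, and 3 counts in a library corresponded to 0.0818 to 0.218 CPM, a limit that covers counting error only. CPM here is the count relative to the library size after TMM scaling, which centers the libraries on the bulk of the genes. The 6 columns come from libraries numbered 1 to 3 per group, and no label says that they were separate cultures, so that p-values measure the spread between these libraries only. The label of a colon cancer line was checked with 10 epithelial markers. Their summed level was 57220 to 79260 CPM in parental libraries and 8783 to 10290 CPM in p85β KR-AA libraries. Of these markers 7 fell, including the keratins KRT8, KRT18 and KRT19, 1 rose (CDH1, though not with the gene length offset described further on), and CDX1 had at most 3 counts in any library. Of 10 mesenchymal markers 8 rose, VIM and FN1 among them, and 6 rose with the gene length offset. The sum of the 10 went from 7.65 to 10.3 CPM in parental to 6320 to 7233 CPM in p85β KR-AA libraries, while COL1A2 and THY1 had at most 1 count. The summed blood markers were at 57.3 to 74.2 and 39.8 to 48.6 CPM, squamous markers at 6.18 to 8.25 and 1.60 to 2.19 CPM, glial markers at 14.9 to 18.0 and 8.21 to 10.1 CPM, and neuron markers at 521.3 to 609.1 and 205.2 to 225.8 CPM, in parental and p85β KR-AA libraries respectively. Under TMM scaling 1 blood, 3 squamous, 1 glial and 1 neuron marker fell and 1 glial marker rose. Nearly all of the neuron sum came from TUBB3, with parental values of 607.4, 557.0 and 519.8 CPM. Its p85β KR-AA values were 204.7, 204.0 and 224.1 CPM. SNAP25 counts were 0, 1 and 0 in parental cells, against 11, 12 and 6 in the mutant cells. SYP reached at most 1.73 CPM, and STMN2 had at most 2 counts. DCX and ELAVL4, which define neurons, were at 0 in all libraries. Fewer cells of a type and less RNA per cell cannot be told apart in bulk RNA, and the part of these marker shifts in the S100 results was not tested.

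In p85β KR-AA cells 9 of the 10 S100 transcripts fell and S100A4 rose, in edgeR's quasi-likelihood test with Benjamini-Hochberg adjustment over 16059 genes. Rose and fell mean an adjusted p below 0.01, and called up- or down-regulated means in addition a fold change of at least 3. Among all genes tested, 41.6% rose and 32.7% fell. S100A2, S100A3, S100A13, S100A14 and S100A16 were called down-regulated and none of the 10 was called up-regulated, against 17.6% of all genes called down-regulated and 28.6% called up-regulated. The median log2 fold change was -1.47 for the S100 genes and 0.32 for all genes tested. The 3 parental and 3 p85β KR-AA values did not overlap for any of the 10 genes, which was true of 83.4% of all genes.

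**Figure D1:**
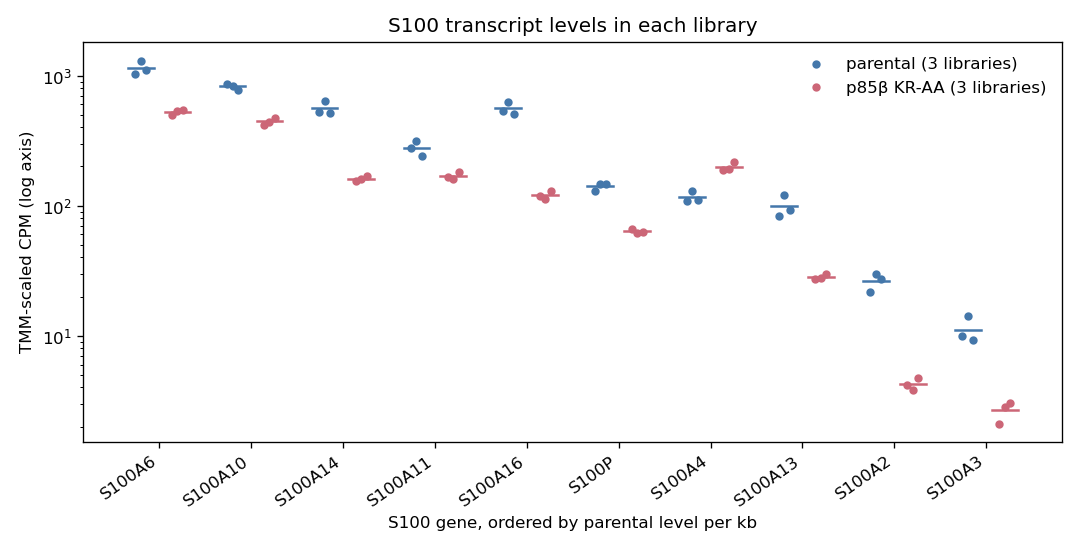
TMM-scaled CPM on a log axis for each S100 gene, with a point for every library (3 parental, 3 p85β KR-AA) and a bar at the group mean. For S100A4 the p85β KR-AA points (186.5 to 214.7 CPM) lie above the parental points (107.9 to 130.0 CPM), a direction kept under every scaling tried, and for the other 9 genes they lie below. For S100A6, S100A10 and S100A11 that direction is lost or turned under other scalings.

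S100 genes are short, with lengths of 453 to 1172 bases in the deposited table, and fold changes in this comparison went with gene length. Of the 1950 tested genes in that length range 57.6% fell, 15.0% rose and 39.0% were called down-regulated, with a median log2 fold change of -1.12. Read against genes of their own length, S100A6 and S100P lay near the middle, above 49.0% and 48.7% of them. S100A10 and S100A11 lay above 55.2% and 59.2%. S100A4 lay above 83.5% of these genes, although only above 57.8% of all genes tested. At the low end, S100A2 lay above 15.0%, S100A16 above 23.7% and S100A3 above 27.5% of the genes of this length.

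Scaling by library totals in place of TMM moved the median log2 fold change of all genes by 0.92, from 0.32 to 1.24, and the S100 values with it. Under library totals S100A4 still rose, by 1.70 on the log2 scale, and 5 genes fell, while S100A6 and S100P were at -0.21 and -0.23 and S100A10 and S100A11 turned positive, at 0.036 and 0.22, all 4 with adjusted p above 0.01 in edgeR's quasi-likelihood test. Among all genes 57.9% rose and 17.9% fell under library totals. S100A4 was called up-regulated and S100A2 down-regulated, against 43.9% and 6.06% of all genes. With an offset for gene length, S100A4 rose and the same number of 5 S100 genes fell (31.1% and 37.6% of all genes). With offsets for length and GC content, 3 rose (S100A4, S100A6 and S100A11) and 4 fell (S100A2, S100A10, S100A14 and S100A16), against 26.8% and 36.9% of all genes. S100A4 was higher and S100A2, S100A14 and S100A16 were lower at an adjusted p below 0.01 under all 4 scalings.

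**Figure D2:**
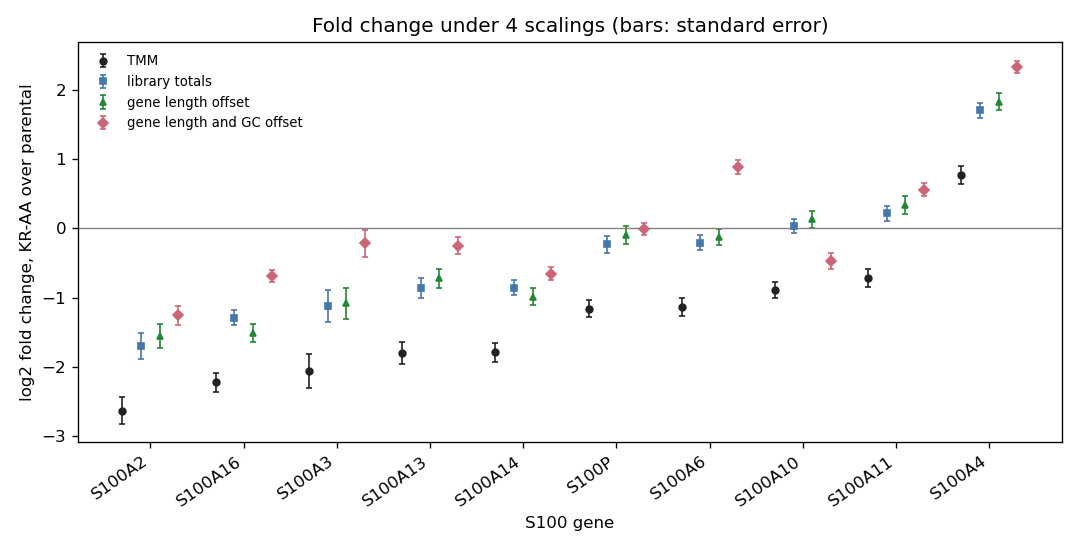
log2 fold change of each S100 gene with its standard error under TMM, library totals, a gene length offset, and offsets for both length and GC. S100A4 is above 0 under all 4 (0.77 to 2.33) and S100A2, S100A16 and S100A14 below 0 under all 4, while S100A6, S100A10 and S100A11 lie on both sides of 0 depending on the scaling.

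S100A4, or metastasin, binds the heavy chain of non-muscle myosin IIA and is widely used as a mesenchymal marker. It was measured at 107.9, 130.0 and 109.7 CPM in parental replicates 1, 2 and 3, and at 186.5, 191.3 and 214.7 CPM in p85β KR-AA replicates 1, 2 and 3. All p85β KR-AA libraries were above all parental libraries. The mean went from 115.9 ± 12.3 to 197.5 ± 15.1 CPM (± SD, n = 3 per group). Its log2 fold change was 0.77, with a standard error (SE) of 0.13 and an adjusted p of 0.00012 in edgeR's quasi-likelihood test. It rose more under the other scalings, by 1.83 with the length offset and 2.33 with the length and GC offsets.

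S100A2, S100A14 and S100A16 were lower in p85β KR-AA cells whatever the scaling. S100A2, a nuclear S100 protein of basal epithelial cells that binds p53, was at 21.8, 29.9 and 27.1 CPM in the parental libraries and at 4.20, 3.80 and 4.74 CPM in the p85β KR-AA libraries. The groups were far apart, and the log2 fold change of -2.63 (SE 0.19, adjusted p 6e-08 in edgeR's quasi-likelihood test) was the largest of the 10. It was -1.70 under library totals, -1.55 with the length offset and -1.26 with the length and GC offsets. S100A16, a broadly expressed member with a single working EF-hand, was at 536.9, 628.8 and 510.2 CPM in parental and 118.9, 111.5 and 129.8 CPM in p85β KR-AA libraries. S100A14, an epithelial member that interacts with S100A16, was at 524.1, 637.3 and 513.7 CPM in parental and 154.3, 160.9 and 169.3 CPM in p85β KR-AA libraries. This pair of neighbours started at nearly the same CPM, and S100A16 ended lower in every p85β KR-AA library. Their log2 fold changes were -2.22 (SE 0.14, adjusted p 1.55e-08) and -1.79 (SE 0.13, adjusted p 6.73e-08) by edgeR's quasi-likelihood test. With the length and GC offsets they were -0.69 and -0.66.

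S100A3 and S100A13 were also called down-regulated, but their decrease did not pass the test once GC content was offset. S100A3, a cysteine-rich protein known from hair, was the lowest of the 10, at 9.90, 14.1 and 9.19 CPM in parental and 2.10, 2.82 and 3.06 CPM in p85β KR-AA libraries. Its log2 fold change was -2.06 (SE 0.24, adjusted p 4.88e-06 in edgeR's quasi-likelihood test), and -0.22 with an adjusted p of 0.323 under the length and GC offsets. S100A13, which takes part in the release of FGF1 without a signal peptide, was at 82.7, 120.5 and 92.2 CPM in parental and 27.4, 27.7 and 29.9 CPM in p85β KR-AA libraries. The parental libraries differed more among themselves than the p85β KR-AA libraries did. The log2 fold change was -1.80 (SE 0.16, adjusted p 3.3e-07 in edgeR's quasi-likelihood test), and -0.25 with an adjusted p of 0.0786 under the length and GC offsets.

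S100A6, S100A10, S100A11 and S100P fell by less than the call threshold of 3-fold, and their direction depended on the scaling, S100P excepted. S100A6, or calcyclin, was the most abundant, at 1036, 1304 and 1100 CPM in parental and 495.3, 530.8 and 540.0 CPM in p85β KR-AA libraries. Its log2 fold change of -1.14 (SE 0.13, adjusted p 3.7e-06 in edgeR's quasi-likelihood test) became -0.13 with the length offset and 0.88, an increase with an adjusted p of 1.15e-05, with the length and GC offsets. S100A10, or p11, which does not bind calcium and pairs with annexin A2 at membranes, was at 862.5, 831.9 and 779.2 CPM in parental and 420.3, 439.5 and 474.2 CPM in p85β KR-AA libraries. The groups were well separated on this scale, with a log2 fold change of -0.89 (SE 0.12, adjusted p 1.64e-05 in edgeR's quasi-likelihood test). The length offset gave 0.13 and the length and GC offsets gave -0.47. S100A11, or calgizzarin, which binds annexin A1, was at 279.5, 312.2 and 242.6 CPM in parental and 166.3, 159.3 and 182.7 CPM in p85β KR-AA libraries. It had the smallest decrease, with a log2 fold change of -0.72 (SE 0.13, adjusted p 0.000265 in edgeR's quasi-likelihood test), and was positive under the other 3 scalings, at 0.22, 0.33 and 0.56. S100P, a secreted RAGE ligand that also binds ezrin inside the cell, was at 130.5, 146.4 and 147.3 CPM in parental and 65.9, 61.7 and 62.6 CPM in p85β KR-AA libraries. Its log2 fold change was -1.16 (SE 0.12, adjusted p 1.78e-06 in edgeR's quasi-likelihood test), but -0.09 and -0.01 with the offsets, with adjusted p of 0.53 and 0.926.

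The order of the 10 genes, on a scale of CPM per kb of gene length, changed most for S100A4, which went from rank 7 to rank 3. In parental cells S100A6 (1704 ± 207.7 CPM per kb, SD, n = 3) and S100A10 (1339 ± 68.5) led, followed by S100A14, S100A11, S100A16, S100P, S100A4, S100A13, S100A2 and S100A3 (14.9 ± 3.60). The ranges of neighbours in this order overlapped for S100A14 and S100A11, for S100A11 and S100A16, and for S100A4 and S100A13. In p85β KR-AA cells S100A6 (775.6 ± 35.1) and S100A10 (721.9 ± 44.4) still led, with overlapping ranges, and S100A4 (372.0 ± 28.4), S100A11, S100A14, S100P, S100A16, S100A13, S100A2 and S100A3 (3.59 ± 0.67) followed without overlap.

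Shares within the sum of the 10 genes do not depend on a scaling factor per library. A length or GC trend that differs between libraries need not cancel in them, and the offsets were not applied to the shares. The sum was 3760 ± 343.9 CPM in parental and 1714 ± 87.5 CPM in p85β KR-AA cells, or 0.272% and 0.236% of all counts of a library, so that the summed level differed much less when libraries were compared by their totals. Of the sum per kb, S100A4 made up 3.98%, 4.17% and 4.10% in parental libraries and 13.9%, 13.9% and 14.5% in p85β KR-AA libraries. Its mean share was 3.46 times higher in p85β KR-AA cells. S100A16 went from 8.91% ± 0.25 to 3.89% ± 0.19 and S100A14 from 10.2% ± 0.35 to 5.99% ± 0.059 (SD, n = 3). S100A13 went from 3.57% to 2.09%, S100A2 from 1.08% to 0.355% and S100A3 from 0.277% to 0.136%, whereas S100A11 went from 9.24% to 11.4%. For these 7 genes the libraries of the groups did not overlap, and each two-sided exact permutation test gave p = 0.1, the smallest that 3 against 3 libraries allow (0.143 after Benjamini-Hochberg adjustment over 10 genes). Groups without overlap were common, at 83.4% of all genes tested in TMM-scaled CPM. S100A6 (31.9% and 29.5%), S100A10 (25.2% and 27.4%) and S100P (5.64% and 5.12%) overlapped between groups, with exact permutation p of 0.2, 0.2 and 0.3.

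**Figure D3:**
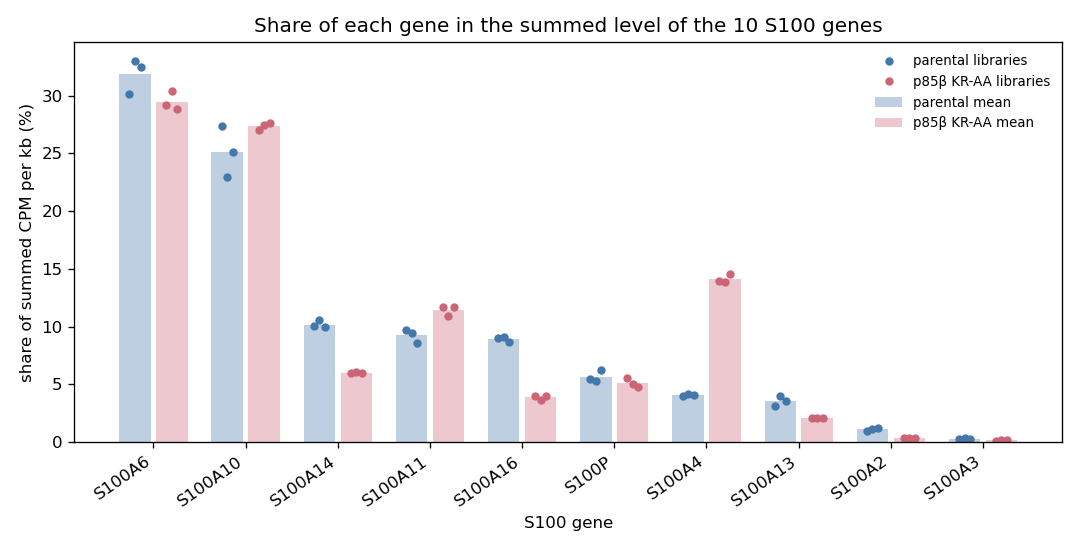
Share of each S100 gene in the summed CPM per kb of the 10 genes, in percent, with bars at the group means and a point per library (3 parental, 3 p85β KR-AA). S100A4 stands at 4.08% in the parental group and 14.1% in the p85β KR-AA group, S100A16 and S100A14 are lower in p85β KR-AA libraries, and the points of S100A6, S100A10 and S100P overlap.

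Ratios within a library compared S100A10 with its partner ANXA2 and each of the 9 chromosome 1 genes with the next of the 9. Of the 9 ratios, 7 did not overlap between groups, each at the exact permutation floor of p = 0.1 (0.129 after Benjamini-Hochberg adjustment over 9). In TMM-scaled CPM 83.4% of all genes tested did not overlap between groups, and ratios of other gene pairs were not computed. S100A4 and the S100A3 gene within its span moved furthest apart, from a log2 ratio of 3.93, 3.69 and 4.06 in parental to 6.96, 6.57 and 6.62 in p85β KR-AA libraries. Per kb, S100A4 was thus 14.8 times as abundant as S100A3 in parental and 104.9 times in p85β KR-AA cells. S100A6 to S100A4, which have S100A5 between them, went from a log2 ratio of 2.96 ± 0.037 to 1.06, a difference of -1.90. The smaller separations were 0.57 for S100A3 to S100A2, 0.42 for S100A11 to S100A6, -0.41 for S100A2 to S100A16 and -0.43 for S100A16 to S100A14. S100A14 to S100A13 differed by -0.004 and S100A10 to S100A11 by -0.18, with overlapping libraries and exact permutation p of 1.0 and 0.2. The length and GC offsets were not applied to these ratios. With both offsets the log2 fold changes of S100A10 and S100A11 lay apart, at -0.47 and 0.56.

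**Figure D4:**
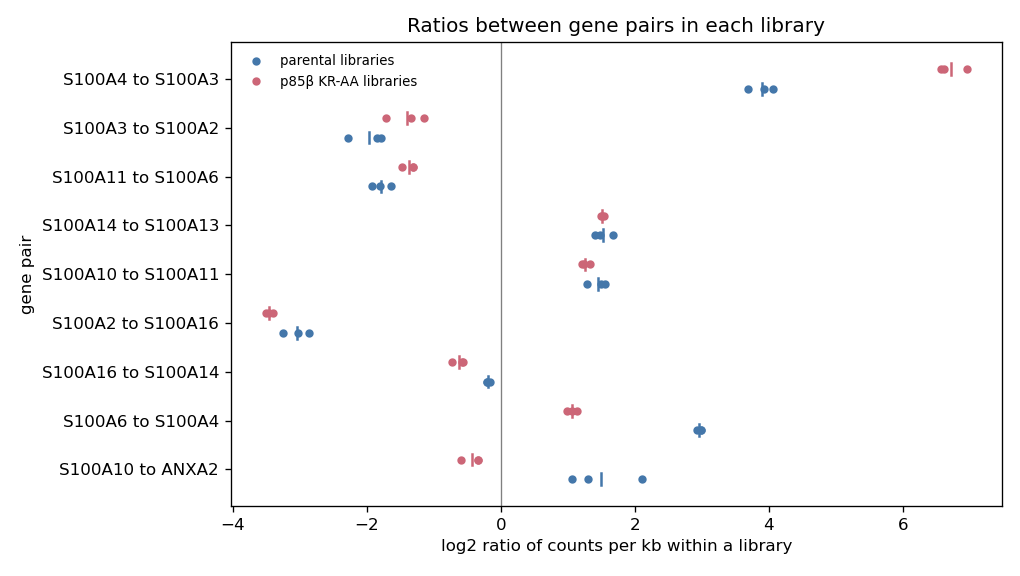
log2 ratio of counts per kb within each library for 9 gene pairs, with a point per library and a bar at the group mean. The p85β KR-AA points lie far to the right of the parental points for S100A4 to S100A3, far to the left for S100A6 to S100A4 and S100A10 to ANXA2, and among them for S100A14 to S100A13 and S100A10 to S100A11.

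The S100A10 partners did not follow S100A10. ANXA2, which forms a tetramer with S100A10, rose from 711.9 ± 214.2 to 1398 ± 85.5 CPM (log2 fold change 0.97, adjusted p 0.000476 in edgeR's quasi-likelihood test). The log2 ratio of S100A10 to ANXA2 was 2.11, 1.30 and 1.06 in parental and -0.59, -0.35 and -0.34 in p85β KR-AA libraries. S100A10 was thus 2.81 times as abundant as ANXA2 per kb in parental cells and ANXA2 was 1.34 times as abundant as S100A10 in p85β KR-AA cells, with parental replicate 1 standing above the other parental libraries. AHNAK, a giant scaffold bound by the S100A10 and ANXA2 complex, rose from 123.8 ± 40.7 to 1343 ± 77.1 CPM, a log2 fold change of 3.44 that was 0.62 with the offset for its length of 18761 bases. PLAT, the tissue plasminogen activator that docks on that complex, rose from 11.3 ± 1.06 to 206.8 ± 10.3 CPM, a log2 fold change of 4.20, and 3.97 with the length offset. PLAUR, the urokinase receptor, was at 95.2 ± 7.45 and 109.1 ± 7.55 CPM with an adjusted p of 0.163 by edgeR's quasi-likelihood test, although it rose under the other 3 scalings, by 1.12, 0.77 and 1.38 on the log2 scale under library totals, with the length offset and with both offsets.

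Of 30 listed partners and receptors of S100 proteins 25 were tested, of which 10 rose and 10 fell, or 40% each beside 41.6% and 32.7% of all genes, with a median log2 fold change of -0.17. The annexins moved in both directions. ANXA1, the partner of S100A11, rose from 17.0 ± 6.18 to 159.1 ± 47.3 CPM (log2 fold change 3.23), and ANXA11, a partner of S100A6, fell from 380.6 ± 24.2 to 174.1 ± 15.7 CPM (-1.13, and -0.21 under library totals, where it missed the threshold). CACYBP, the calcyclin-binding protein of the ubiquitin pathway, fell by 0.78 on the log2 scale but was at 0.14 under library totals, and SUGT1 was at 0.64 with an adjusted p of 0.0108 in edgeR's quasi-likelihood test, just outside the threshold. Of the S100A4 partners, MYH9, the myosin IIA heavy chain, was at 1251 ± 363.9 and 1115 ± 103.3 CPM with overlapping libraries (log2 fold change -0.17, adjusted p 0.428 by the same edgeR test), and its direction depended on the scaling, at 0.75 under library totals, -2.16 with the length offset and -0.64 with both offsets, each past the threshold. PPFIBP1, or liprin β1, rose by 2.70 on the log2 scale, and by 1.04 with the length offset, but was at 0.40 with both offsets (adjusted p 0.0165 in edgeR's quasi-likelihood test).

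The S100P partners moved apart. EZR, the membrane-cytoskeleton linker ezrin, fell from 1967 ± 108.0 to 859.5 ± 53.1 CPM (log2 fold change -1.19, and -0.27 under library totals, where it missed the threshold). IQGAP1, a scaffold of small GTPases, rose from 9.74 ± 3.22 to 144.7 ± 21.8 CPM (3.89, and 1.95 with the length offset). SYT1, which joins S100A13 and FGF1 in the release complex, rose by 3.37 on the log2 scale from 0.57 ± 0.28 to 5.82 ± 0.84 CPM. FGF1 itself had at most 4 counts in any library and was not tested. AGER, the gene of RAGE, fell from 36.4 ± 5.54 to 8.92 ± 2.28 CPM (-2.03, adjusted p 1.5e-06 in edgeR's quasi-likelihood test). With both offsets it was at -0.59, with an adjusted p of 0.0182 in the same edgeR test.

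Of the other 18 genes of the S100 family, 5 passed the low-count filter. S100A5, the gene between S100A6 and S100A4, had 41, 41 and 26 counts in parental and 21, 8 and 4 counts in p85β KR-AA libraries, a log2 fold change of -2.79 (adjusted p 7.97e-05 in edgeR's quasi-likelihood test, and 0.0318 with both offsets). S100A1, known from heart muscle, had 25, 23 and 31 counts in parental and 6, 16 and 24 counts in p85β KR-AA libraries. Its log2 fold change was -1.76 with an adjusted p of 0.0037 in the same edgeR test, and -0.84 under library totals, where the libraries overlapped. It missed the threshold without parental replicate 1 or 3 or p85β KR-AA replicate 1 or 2, with adjusted p of 0.0126 to 0.0207 by the same edgeR test. S100A9, a calprotectin subunit, had 26 to 32 counts in parental and 77 to 140 counts in p85β KR-AA libraries. Its log2 fold change was 0.64 with an adjusted p of 0.0424 in edgeR's quasi-likelihood test. On the log2 scale it rose by 1.57 under library totals, 1.68 with the length offset and 2.24 with both offsets. Its partner S100A8 had 0, 1 and 1 counts in parental and 5, 4 and 5 counts in the p85β KR-AA libraries, too few for the test. The fused-type genes HRNR and TCHH, long proteins of the cornified layer, rose from a few counts. HRNR, with 0, 0 and 3 counts in parental and 36, 15 and 29 counts in p85β KR-AA libraries, was at least 3.91-fold higher against the level of 3 counts in a parental library. TCHH went from 4, 3 and 1 to 46, 55 and 29 counts, and neither of these long genes passed the threshold with the length offset. The remaining 13 were counted at 18 or fewer in every library, S100B, S100G, S100A7A, S100A7L2, CRNN and TCHHL1 at 0.

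The libraries' pattern of a low and a high group of 3 was shared with many genes. Over the 6 libraries, on a log2 CPM scale with a pseudocount of 0.5, the genes most correlated with S100A4 were NIM1K (Pearson r 0.9988), UBA6-DT (0.9970) and PRXL2A (0.9956), and 17 genes had r over 0.99. Those most correlated with S100A2 were COX6B1 (1.0000), ILF2 (0.9997) and PNP (0.9996), with 1551 genes over 0.99. These correlations describe 6 libraries of 2 groups and are given without a test.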

How the data were processed

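RNA of 3 parental and 3 p85β KR-AA libraries of DLD1 cells was extracted with TRIzol and sequenced with an Illumina TruSeq kit. The methods describe trimming with SeqPrep and Sickle, FPKM values, and, for calls, 3-fold or more with an adjusted p below 0.01. Per the submitters' processing notes, the tools were HISAT2 2.1.0, RSEM 1.3.1 and DESeq2 1.24.0 and the build hg18, and the annotation is not given in the sources used here. The table that the authors deposited holds expected counts, without normalization, for Ensembl genes, beside a gene length. No strand setting is given in the sources used here, so reads of genes that overlap on opposite strands cannot be told apart.

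Estimated counts were rounded and fitted with edgeR 4.0.16 in R 4.3.3 (filterByExpr at 10 counts and a total of 15, TMM, quasi-likelihood F test, Benjamini-Hochberg adjustment over 16059 genes, no covariate, parental cells as reference). Standard errors come from the F statistic and the fold change. Shares and ratios, from counts per kb of the deposited length, were compared with two-sided exact permutation tests. Symbols, positions and GC content came from GENCODE release 44 lifted to GRCh37 (56745 of 58884 genes matched), a build other than that of the notes, so positions are those of the annotation. Promoters came from RefSeq on GRCh38.p14, and protein sequences were not used here. Alternatives were DESeq2 1.42.0, library totals, other filters and thresholds, glmTreat from edgeR, each library left out, a replicate block, and offsets per library for gene length and GC content, fitted with robust splines with 5 degrees of freedom (MASS). Such offsets take out all differences between libraries in how expression depends on length or GC, technical or not. The code was tested on simulated counts with 200 changed genes. Without a length bias the TMM fit recovered 100% of them and called 1 unchanged gene. With a simulated length bias it recovered 95% and called 136 unchanged genes, against 100% and 2 with the length offset. No pair of replicates agreed within sampling noise (chi-square per degree of freedom 4.08 to 35.8).

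The 10 genes and all lists, as well as the tests, were chosen with earlier results of these data known. All 10 were named. Of the other S100 genes, those that passed the filter were named, with S100A8, S100B, S100G, S100A7A, S100A7L2, CRNN and TCHHL1 added after their values were seen. Partners were named from a written list of 15 genes, EF-hand genes as the 2 with the largest change in each direction among those called, and like genes as the 3 with the highest Pearson correlation for the genes with the largest and the smallest fold change. PIK3R2 was not analysed here.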

Additional observations from a re-analysis of the deposited data

How the results depend on the processing

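The calls of all 10 S100 genes kept their direction and side of the threshold with DESeq2, both filters on low counts, the replicate block and each library left out. Of the 10 genes, 1 was called up-regulated under library totals, with the length offset and with the length and GC offsets, and 1, 0 and 0 were called down-regulated, against 2 when the fold change was tested against 3. Among all genes, 43.9%, 17.6% and 13.1% were called up-regulated under these scalings and 6.06%, 19.8% and 12.1% down-regulated. The numbers of S100 genes that fell were 5, 5 and 4, and 3 rose with both offsets. Their median log2 fold change was -0.55, -0.43 and -0.23 under these scalings, -1.59 with DESeq2 and -1.28 with at least 10 counts in every library.

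Log2 fold changes that turned were those of S100A6 (0.88 with both offsets), S100A10 (0.036 under library totals, 0.13 with the length offset), S100A11 (0.22, 0.33 and 0.56 under totals, the length offset and both offsets), S100A1 (0.039 with both offsets), CACYBP (0.14 under totals), SUGT1 (-0.087 with both offsets) and MYH9 (0.75 under totals, 0.032 with at least 10 counts in every library, -0.41 to 0.026 without single libraries, the latter without parental replicate 1). The cause was not tested.

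Of the 5 other S100 family genes tested in the reported fit, 2 were called up and 2 down, or 40% each, beside 28.6% and 17.6% of all genes. These became 0 up with at least 10 counts in every library and when tested against 3, 1 up with the length offset, 1 down under totals, with the length offset and when tested against 3, and 0 down with at least 10 counts in every library and with both offsets. Fewer of these genes are tested with 10 counts in every library. Without single libraries 1 to 2 were called down, 1 without parental replicates 1 or 3 or KR-AA replicates 1 or 2. Of the 25 partners tested, 9 (36%) were called up, and 5 (20%) with both offsets, beside 28.6% and 13.1% of all genes. Partners called down were 5 (20%), against 1 (4%) under totals, beside 17.6% and 6.06% of all genes. They were 3 when tested against 3 and 8 at a fold change of 2 and adjusted p of 0.05. Other EF-hand genes called up were 3, against 9 under totals and at the looser thresholds, and 3 to 5 without single libraries, with 5 without parental replicate 3. Those called down were 11, against 2 under totals and 6 with both offsets, of 34 tested. Among all genes, 43.9%, 17.6% and 13.1% were called up under totals, with the length offset and with both offsets, and 6.06%, 19.8% and 12.1% down.

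Without division by gene length, differences in share (percentage points) were -0.45 for S100A2, 8.44 for S100A4, 0.0091 for S100A6, 3.91 for S100A10, -0.95 for S100A13, -5.40 for S100A14, -7.84 for S100A16 and -0.069 for S100P. That division cancels in the differences of ratios, which were the same without it. A length or GC trend that differs between libraries need not cancel, and the offsets were not applied to the ratios. With both offsets the log2 fold changes of S100A10 and ANXA2 were -0.47 and 0.51, against -0.89 and 0.97 under TMM. Those of S100A16 and S100A14 were -0.69 and -0.66, against -2.22 and -1.79. Those of S100A4 and S100A3 were 2.33 and -0.22, against 0.77 and -2.06. Those of S100A10 and S100A11 were -0.47 and 0.56, against -0.89 and -0.72. For S100A11 and S100A6 they were 0.56 and 0.88, against -0.72 and -1.14, so their order turned. Those of S100A14 and S100A13 were -0.66 and -0.25, against -1.79 and -1.80. The replicate numbers did not pair the libraries: deviations from group means correlated at -0.20, 0.18 and -0.057 for equal numbers, and with the replicate block 1 S100 gene rose, 9 fell and S100A4 was at 0.77. Of the genes named with a test in the report, SUGT1 changed its call with the block, at 0.66 with an adjusted p of 0.00405 in edgeR's test.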

Other observations

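Other EF-hand calcium-binding proteins, 34 of 40 listed genes being tested, included 18 that fell and 9 that rose. These are 52.9% and 26.5% of the list, beside 32.7% and 41.6% of all genes. The median log2 fold change was -0.70, and 11 (32.4%) were called down-regulated and 3 (8.82%) up-regulated, beside 17.6% and 28.6% of all genes, by edgeR's quasi-likelihood test with Benjamini-Hochberg adjustment. Under library totals 11 fell and 15 rose (32.4% and 44.1%, beside 17.9% and 57.9% of all genes), so which direction was larger depended on the scaling. The share that fell was above that of all genes under TMM and totals. It was also above it with the length offset (44.1% beside 37.6%) and with both offsets (47.1% beside 36.9%). The share that rose was 32.4% and 23.5% with these offsets, beside 31.1% and 26.8% of all genes. The largest increases were those of the secretory pathway proteins RCN3 and CALU. RCN3 had at most 3 counts in each parental library and was at least 31.7-fold higher in p85β KR-AA cells against the level of 3 counts, and CALU rose from 46.3 ± 9.65 to 240.8 ± 22.2 CPM (log2 fold change 2.38). The largest decreases were those of MYL9, a myosin regulatory light chain of contractile cells, from 116.1 ± 20.1 to 8.08 ± 0.84 CPM (-3.85), and CIB2, a calcium- and integrin-binding protein, from 29.7 ± 3.97 to 5.15 ± 0.72 CPM (-2.53). All 4 kept their direction under library totals and with the offsets, where CALU was at 0.41 with both.

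Between the outermost S100 genes on chromosome 1 lay 80 other annotated genes of the table, of which 6 were tested. HRNR and TCHH rose and S100A5 fell. S100A9 (0.64 on the log2 scale), PRR9 (0.27, adjusted p 0.325) and SPRR2D (0.10, adjusted p 0.797) did not pass the threshold of edgeR's quasi-likelihood test under TMM. S100A9 did rise under library totals, with the length offset and with both offsets, by 1.57, 1.68 and 2.24. In these fits 4, 2 and 2 of the 6 genes rose. These are 66.7%, 33.3% and 33.3%, beside 57.9%, 31.1% and 26.8% of all genes. S100A5, S100A4 and S100A3 lie next to each other, and of these only S100A4 was higher in p85β KR-AA cells.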
